A study of Mus musculus with 8 samples.

Results

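Brown adipose tissue (BAT) was examined for the genes that mark T cells, B cells and natural killer (NK) cells. The set was a list of 33 gene symbols with no threshold on their values, and all 33 were found among the 49452 genes of the expression table. BAT of 8 male C57BL/6 mice had been sequenced, 2 mice in each of 4 groups. Mice of 10 to 12 weeks were kept at 22 °C (replicates 4 and 7) or held at 4 °C for 24 h (replicates 2 and 11), of which, by the study's methods, 20 h were followed by 4 h of fasting. Mice of 32 weeks had eaten a control diet (CD, replicates 6 and 8) or a high-fat diet (HFD, replicates 2 and 6) for 28 weeks. The labels call the CD group's food normal chow, and which food it was is not settled here. None of the groups carried a transgene or deletion, and whether the 22 °C mice were fasted is not stated. The libraries were made from whole tissue depleted of ribosomal RNA, with no sorting of cells, so the values describe the tissue and whatever blood, lymph node or muscle was dissected with it.

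Lymphocytes are a small part of healthy BAT, whose mass is mostly brown adipocytes, vessels and macrophages. T cells read antigen through a receptor that signals through the CD3 chains and the zeta chain, and the kinases Lck and Zap70 and the adaptor Lat carry that signal on. B cells signal through Cd79a and Cd79b beside their surface antibody. NK cells and cytotoxic T cells kill with granzymes and perforin, and both use the interleukin receptor subunit Il2rb and the transcription factor Tbx21. In whole tissue, fewer cells of a type and less RNA of a gene per cell cannot be told apart.

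Values are FPKM, fragment numbers divided by transcript length and by the library's mapped fragments, as the authors deposited them. The members were low. Of the 33 members, 30 stayed under 1 FPKM in all 8 libraries, 91 of the 264 member values were under 0.1 FPKM, and the median over members of the median FPKM was 0.16. All 33 were above 0 in every library. Thy1, a surface protein of T cells that fibroblasts and other stromal cells also carry, was the most abundant at 1.56 to 6.81 FPKM. Il7r, the receptor subunit for the survival cytokine interleukin 7, reached 1.59 FPKM, and Ikzf1, a transcription factor of all lymphoid lineages, reached 1.06 FPKM. A single fragment on a transcript of 2000 bases was worth 0.0044 to 0.00602 FPKM, by the steps between low values of single-exon genes. Converted in this way with each member's longest transcript, 16 members fell under 10 fragments in at least 1 library, and Blk and Nkg7 under 3. These fragment numbers are approximate, since 28 members have at least 2 annotated transcripts.

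**Figure D1:**
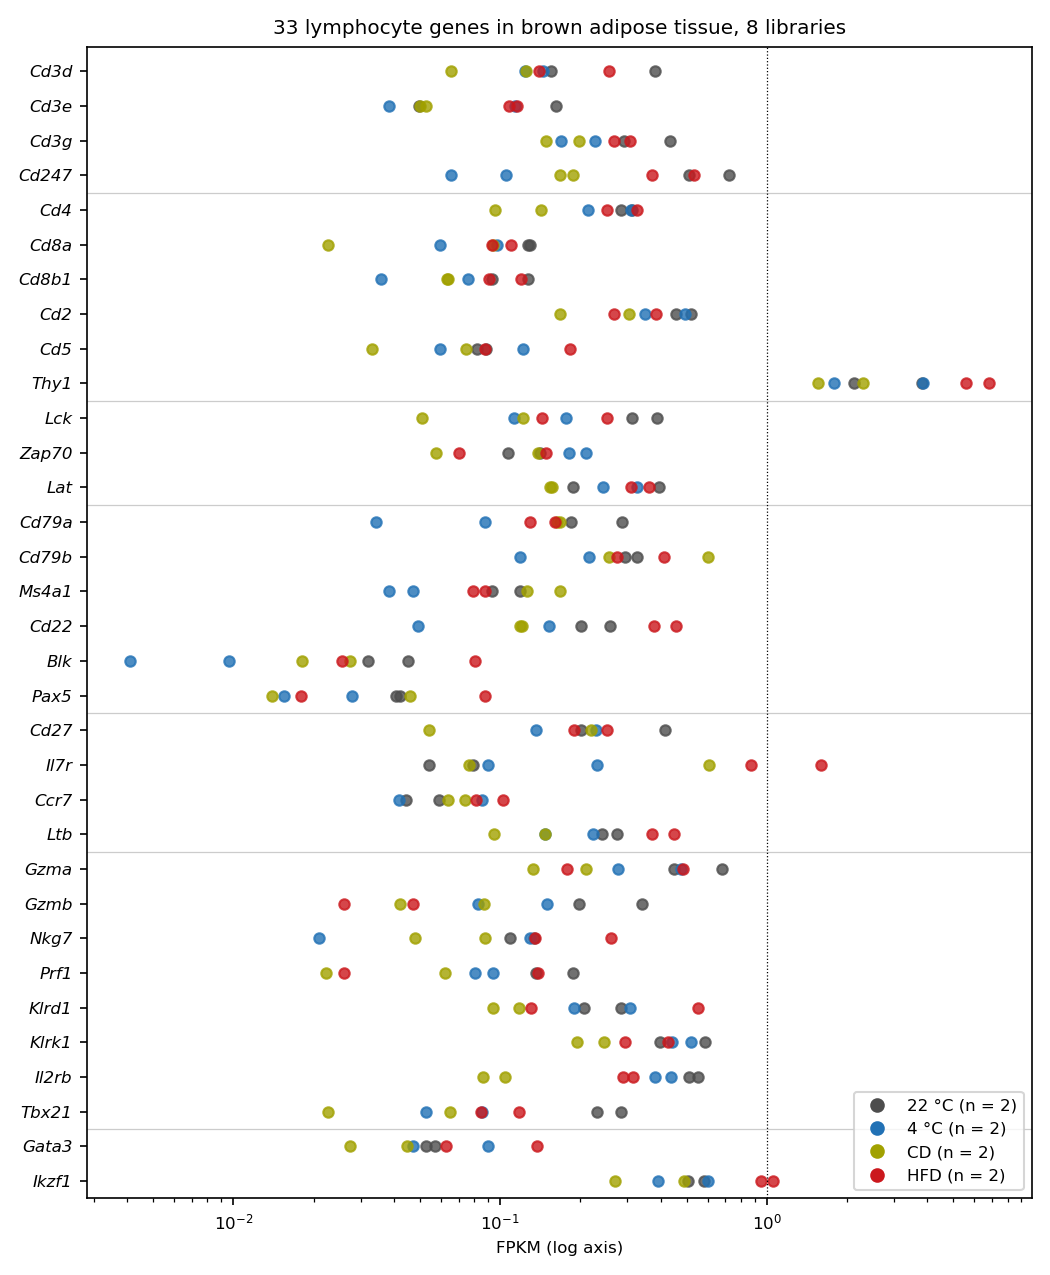
FPKM on a log axis for each of the 33 members (rows, grouped by role), with 1 point per library coloured by group (n = 2 a group). Most points lie between 0.01 and 1 FPKM (dotted line at 1 FPKM), with Thy1 above it in all 8 libraries.

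Libraries differed in content other than lymphocytes. Summed over 11 skeletal muscle genes, the level was 520 and 120 FPKM at 22 °C, 4152 and 1837 at 4 °C, 583 and 1404 on CD, and 187 and 36.1 on HFD. The muscle sum was thus higher at 4 °C than at 22 °C and lower on HFD than on CD, opposite to the T and NK sums given below. Within 22 °C, 4 °C and HFD, the library with more muscle RNA had the higher T sum, and within CD the lower. Within every group that library had the lower NK sum. Erythroid genes, which mark blood left in the tissue, summed to 62.5 FPKM at the lowest (4 °C replicate 11) and 1263 at the highest (HFD replicate 6). The satellite transcript Gm10800 split each group, as it exceeded 100 FPKM in replicate 4 at 22 °C, replicate 11 at 4 °C, CD replicate 8 and HFD replicate 2, and reached at most 4.13 FPKM elsewhere. Among lymph node genes, Madcam1, Glycam1, Chst4 and Fcgbp of high endothelial venules were at 0.0903 FPKM or less in each library. The lymph node chemokine gene Ccl21a ranged from 0.0237 FPKM (CD replicate 6) to 3.12 FPKM (HFD replicate 2), and the B cell attracting chemokine gene Cxcl13 was at 15.3 and 8.64 FPKM at 4 °C against 2.51 and 0.99 FPKM at 22 °C. Lymph node stroma and high endothelial genes, 11 in all, summed to 38.1 and 30.5 FPKM at 22 °C and 39 and 30.8 at 4 °C. Their sum was 25.9 and 24.1 FPKM on CD and 42.6 and 36.8 on HFD. The thymocyte genes Rag1, Rag2 and Dntt reached at most 0.0393 FPKM. The part of these contents in the values below was not tested. The library names in the labels start one way for the 22 °C and 4 °C libraries and CD replicate 6 (5 libraries) and another way for CD replicate 8 and both HFD libraries (3), and what the starts stand for is not stated. The cold comparison lies within 1 start, and the HFD comparison within 1 start is that without CD replicate 6.

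Upstream DNA is shown for 3 members that carry the contrasts below: Cd247, the 1 member under an adjusted p of 0.05 in the test of the difference between the cold and HFD effects on log2(FPKM + 1), Tbx21, the NK and type 1 transcription factor that was low in all groups but 22 °C, and Il7r, highest on HFD. Each line is the 250 bases before the RefSeq transcription start on GRCm38.p6, read 5′ to 3′ on the gene's strand. Capitals mark AGGAAG (or its reverse complement CTTCCT), a core bound by ETS factors, which act widely in blood cells.
Cd247 (chr1:165788431-165788680, plus strand): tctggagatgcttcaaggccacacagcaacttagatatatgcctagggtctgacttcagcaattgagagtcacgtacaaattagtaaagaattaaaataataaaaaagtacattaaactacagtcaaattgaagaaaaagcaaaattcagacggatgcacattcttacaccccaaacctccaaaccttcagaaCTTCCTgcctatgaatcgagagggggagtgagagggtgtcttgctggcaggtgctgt
Tbx21 (chr11:97115332-97115581, minus strand): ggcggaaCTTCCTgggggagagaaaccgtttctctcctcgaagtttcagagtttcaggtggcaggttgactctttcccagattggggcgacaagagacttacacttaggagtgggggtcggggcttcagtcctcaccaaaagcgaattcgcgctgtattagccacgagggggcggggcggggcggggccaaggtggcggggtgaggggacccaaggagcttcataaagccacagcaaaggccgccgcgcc
Il7r (chr15:9529877-9530126, minus strand): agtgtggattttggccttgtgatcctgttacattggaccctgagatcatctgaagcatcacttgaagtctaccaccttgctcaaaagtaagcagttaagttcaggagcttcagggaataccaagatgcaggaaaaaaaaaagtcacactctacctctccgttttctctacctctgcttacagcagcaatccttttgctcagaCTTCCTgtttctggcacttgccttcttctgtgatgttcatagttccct

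Each of the 3 windows held 1 such core. RefSeq promoter entries were found for 23 of the 33 members, 27 entries in all, and 16 of the 27 (59.3%) held AGGAAG on either strand, beside 29.6% of the 31396 autosomal entries. TGTGGT, the core bound by RUNX factors, was in 7 of the 27 (25.9%), beside 14.0% of all entries, and GGTGTG, the core bound by T-box factors, in 5 of the 27 (18.5%), beside 16.4%. TGTGGT and GGTGTG can share bases, some members have several entries, and a match of letters is a description of the window only.

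The 22 °C mice had the highest summed levels of T and NK members. The T members without Thy1, 12 genes, summed to 3.48 and 2.98 FPKM at 22 °C, 2.4 and 1.65 at 4 °C, 1.46 and 1.28 on CD, and 2.66 and 2.64 on HFD. No T sum of another group reached the lower 22 °C library. The 8 NK and cytotoxic members summed to 2.31 and 2.98 FPKM at 22 °C, 1.8 and 1.92 at 4 °C, 0.922 and 0.701 on CD, and 1.31 and 2.2 on HFD. The CD mice were the lowest in both, as deposited. The 6 B cell members gave another order, at 1.08 and 0.847 FPKM at 22 °C, 0.477 and 0.323 at 4 °C, 1.09 and 0.739 on CD, and 1.11 and 1.08 on HFD, so that the 4 °C libraries were lowest and the other 6 libraries lay between 0.739 and 1.11 FPKM. Counted gene by gene, the highest library was a 22 °C library for 17 members and an HFD library for 13. The lowest was a CD library for 21 members and a 4 °C library for 10. The same counts over all genes are not given here, so these describe the members only. By log2 fold change, 79.3% of all genes tested were higher on HFD than on CD, and 60.6% were lower on CD than at 22 °C.

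**Figure D2:**
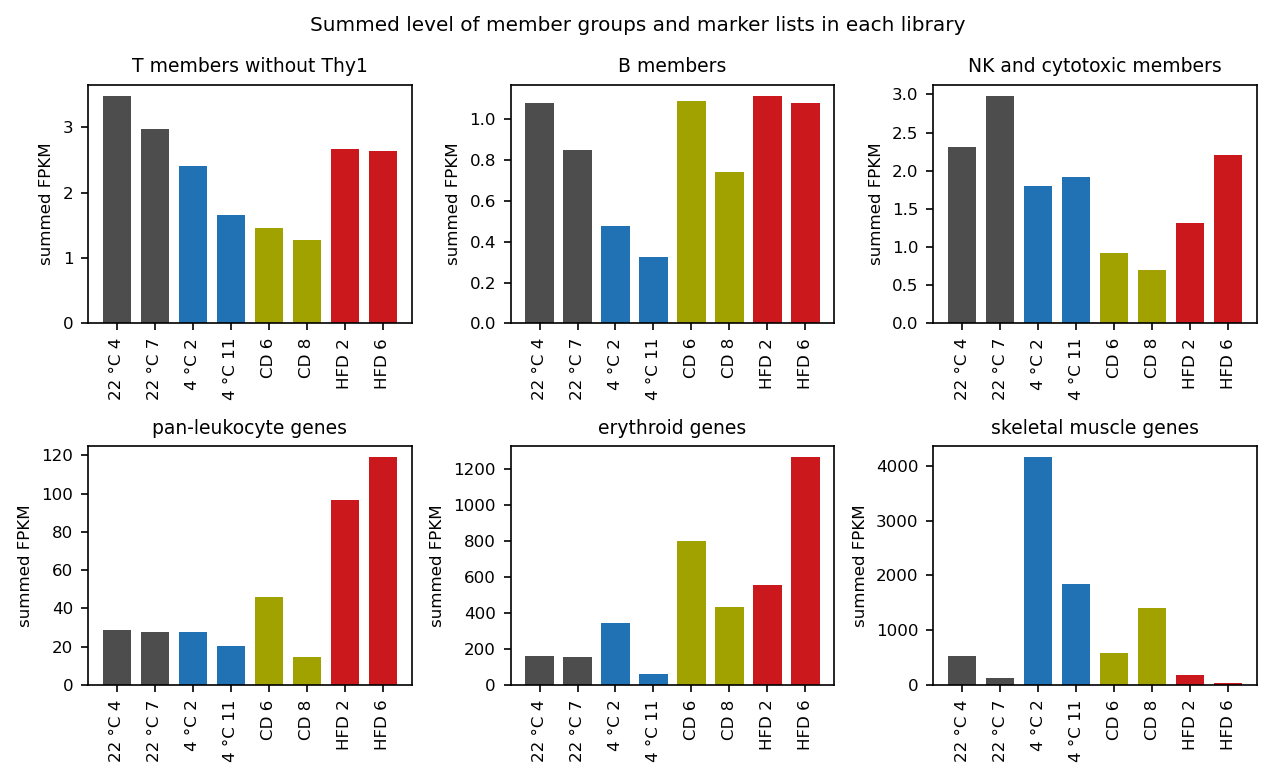
Summed FPKM per library (bars, coloured by group) of the T members without Thy1, the B members and the NK and cytotoxic members, and of pan-leukocyte, erythroid and skeletal muscle genes. The B sum is lowest in the 4 °C libraries (0.477 and 0.323 FPKM), the T and NK sums are lowest on CD, and the muscle sum runs from 36.1 to 4152 FPKM.

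The first comparison asked what 24 h at 4 °C did to the lymphocyte genes. Of the 33 members, 17 were lower in each 4 °C library than in either 22 °C library, 2 were higher in both and 14 overlapped. Among all 17470 genes tested, 20.6% were lower in both and 37.9% higher in both, and among tested genes with a mean under 1 FPKM 29.1% and 23.6%. None of the 25 members tested passed an adjusted p under 0.05 with a log2 fold change of 1 or more (limma on log2(FPKM + 1)), a threshold that 252 genes (1.44%) passed. With a pseudocount of 1, that fold can be reached from 0 only by a gene at 1 FPKM or more, which in this comparison holds for Thy1 alone among the members. At an unadjusted p under 0.05, 4 members were lower (Cd247, Lck, Cd79a and Tbx21) and 0 higher, beside 24.5% of all genes in either direction, 7.26% lower and 17.2% higher. The log2 fold change was negative for 23 of the 25 members and positive for 2, beside 39% and 61% of all genes tested, and its median was -0.10, beside 0.07. A test needed 0.1 FPKM in 2 libraries, which Cd79a, Cd8a, Prf1 and Tbx21 reached at 22 °C alone, so that these 4 could hardly have come out higher in the cold. Of the 21 tested members that reached 0.1 FPKM in both groups, 19 were negative, beside 38.4% of such genes.

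Cd247, the zeta chain of the T cell receptor that NK cells also use, differed most. The gene lies at chr1:165788681-165877277 on the plus strand. Its level was 0.723 and 0.51 FPKM at 22 °C and 0.106 and 0.0653 FPKM at 4 °C. Both 4 °C libraries were the lowest of the 8 libraries and the groups did not overlap. The means were 0.616 ± 0.151 and 0.0854 ± 0.0285 FPKM (SD, n = 2 each), a ratio of 7.21. On log2(FPKM + 1) the change was -0.57 (SE 0.088, limma adjusted p = 0.0511), and with a pseudocount of 0.1 it was -1.94 (adjusted p = 0.0465), past the threshold with 475 genes in all. Over the 16 alternative settings tried, the adjusted p ran from 4.68e-05 to 0.186, and the change was negative in all 16. Exons of Cd247 overlap those of Pou2f1 on the other strand and of Gm16565 on its own. How the authors' FPKM assigned strand is not stated in the sources used here, so reads of these genes may not be fully separated.

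The 3 CD3 chains gave smaller differences. Their genes lie side by side on chromosome 9, from Cd3g (chr9:44969572-44980431) through Cd3d (chr9:44981786-44987339) to Cd3e (chr9:44998740-45009627). Cd3g was at 0.434 and 0.292 FPKM at 22 °C and 0.226 and 0.169 at 4 °C, and Cd3d at 0.155 and 0.381 against 0.145 and 0.125. Both were lower in both cold libraries, with limma adjusted p of 0.223 and 0.373. Cd3e overlapped, at 0.162 and 0.0495 FPKM against 0.114 and 0.0384. Ratios of means were thus 1.84, 1.99 and 1.39 for Cd3g, Cd3d and Cd3e, beside 7.21 for Cd247, although the 4 chains assemble into 1 receptor.

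Downstream of the receptor the members differed in direction. Lck, the kinase bound to Cd4 and Cd8, was at 0.389 and 0.312 FPKM at 22 °C and 0.177 and 0.113 at 4 °C, a log2 fold change of -0.24 (limma adjusted p = 0.115). Zap70, the kinase that docks on the phosphorylated chains, was higher in both cold libraries, at 0.209 and 0.181 FPKM against 0.107 and 0.141 (0.09, adjusted p = 0.353). The adaptor Lat overlapped, at 0.327 and 0.243 against 0.393 and 0.188 FPKM. Of the surface proteins, Cd8a and Cd8b1, the 2 chains of the cytotoxic coreceptor, were lower in both cold libraries (ratios of means 1.63 and 1.98), and the helper coreceptor Cd4, the adhesion protein Cd2, the inhibitory receptor Cd5 and Thy1 overlapped.

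All 6 B cell members were lower in both 4 °C libraries. Cd79a, a signalling chain of the B cell receptor (chr7:24897381-24902197, plus strand), was at 0.285 and 0.184 FPKM at 22 °C and 0.0343 and 0.0879 at 4 °C. The groups did not overlap, and the log2 fold change was -0.22 (SE 0.0644, limma adjusted p = 0.127), for a gene that was tested through its 22 °C values alone. Its partner Cd79b was at 0.327 and 0.295 against 0.215 and 0.119 FPKM, and the inhibitory coreceptor Cd22 at 0.258 and 0.202 against 0.153 and 0.0493 FPKM. Ms4a1, which encodes the CD20 surface protein, was at 0.119 and 0.0932 against 0.0383 and 0.0472 FPKM. The kinase gene Blk (0.0452 and 0.0321 against 0.00962 and 0.00411 FPKM) and the lineage factor gene Pax5 (0.0421 and 0.0406 against 0.0279 and 0.0155 FPKM) stood on few fragments, and Ms4a1, Blk and Pax5 were too low to be tested. In a list of 17 other B cell genes, 12 were tested, of which 8 were lower in both cold libraries and 1 higher, 4 were lower at an unadjusted p under 0.05 and 0 passed the threshold. The most abundant of that list was Cd74, which antigen-presenting cells of any kind express, at 74.3 and 69 FPKM against 66.5 and 46.9 FPKM in the cold. Ighm, the heavy chain of IgM, overlapped at 4.9 and 3.39 against 10.5 and 4.72 FPKM.

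Among the NK and cytotoxic members, Tbx21 differed most. This gene (chr11:97098071-97115331, minus strand) was at 0.232 and 0.284 FPKM at 22 °C and 0.0526 and 0.0858 at 4 °C. The groups did not overlap, with means of 0.258 ± 0.0368 and 0.0692 ± 0.0235 FPKM (SD, n = 2 each) and a log2 fold change of -0.23 (SE 0.0547, limma adjusted p = 0.0847), and Tbx21 too was tested through its 22 °C values alone. Gzmb, a granzyme that triggers death of target cells, was at 0.198 and 0.341 against 0.15 and 0.0831 FPKM, and the pore protein gene Prf1 at 0.136 and 0.187 against 0.094 and 0.0803 FPKM. Il2rb was at 0.553 and 0.512 against 0.383 and 0.436 FPKM. With Tbx21, these were the 4 that were lower in both cold libraries, and Gzma, Nkg7 and the receptor genes Klrd1 and Klrk1 overlapped, the last 2 with ratios of means of 1.01 and 0.975 (4 °C over 22 °C). Among the other members, Ltb, a cytokine gene needed for lymph node formation, was lower in both cold libraries (ratio 1.39), Il7r was higher in both (0.23 and 0.0905 against 0.0792 and 0.0542 FPKM), and the costimulatory receptor Cd27, the lymph node homing receptor Ccr7, Gata3, the T helper 2 and innate lymphoid factor, and Ikzf1 overlapped.

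The direction held under another scale. The median of genes at 1 FPKM or more was shifted by 0.21 (log2) in the cold as deposited. When FPKM were rescaled to an equal sum of autosomal coding genes without Ucp1, 24 members were lower in both cold libraries and 1 higher, beside 43.9% and 19.1% of all genes tested. Within the libraries rich in the satellite transcript (4 °C replicate 11 against 22 °C replicate 4), 28 of 33 members were lower, and within the others (4 °C replicate 2 against 22 °C replicate 7), 23 of 33, beside 45.4% and 34.7% of all genes tested. Of 13 pan-leukocyte genes, 5 were lower in both cold libraries and 0 higher (11 and 0 when rescaled), and their sum overlapped at 28.7 and 27.5 FPKM at 22 °C and 27.9 and 20.3 at 4 °C. Of 14 macrophage and monocyte genes, 12 had a positive log2 fold change and 3 were higher in both cold libraries and 0 lower (1 and 2 when rescaled, which moved the ratio of their sums from 1.46 to 1.07). In these lists limma called 0 genes, with 2 pan-leukocyte genes lower and 1 macrophage gene higher at an unadjusted p under 0.05. The part of these cells in the members' values was not tested.

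The second comparison asked what 28 weeks of HFD did to these genes. Of the 33 members, 21 were higher in each HFD library than in either CD library, 2 were lower in both and 10 overlapped, beside 39.9% and 5.8% of the 17535 genes tested and 41.1% and 8.51% of tested genes with a mean under 1 FPKM. None of the 23 members tested passed the threshold, which 12 genes (0.0684%) passed. Thy1, Il7r and Ikzf1 were high enough to reach a log2 fold change of 1 with the pseudocount of 1. At an unadjusted p under 0.05 limma gave 9 members higher (Cd247, Cd4, Thy1, Lat, Cd22, Il7r, Ltb, Il2rb and Ikzf1) and 0 lower, beside 14.4% of all genes in either direction, 12.1% higher and 2.34% lower. The log2 fold change was positive for 20 of the 23 and negative for 3, beside 79.3% and 20.7% of all genes tested, and its median was 0.16, beside 0.18. Cd3e and Nkg7 were tested through their HFD values alone and Ms4a1 through its CD values alone. Of the 20 members that reached 0.1 FPKM in both groups, 18 were positive, beside 79.4% of such genes. The pseudocount of 1 shrinks the log2 fold changes of genes as low as these. On plain FPKM, the median HFD over CD ratio of all 33 members was 1.92 within the satellite-rich libraries and 2.16 within the others, beside 1.30 and 1.34 for all genes tested.

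Thy1, Il7r and Ikzf1 were above CD in both HFD libraries, and Il7r and Ikzf1 reached 1 FPKM on HFD alone. Thy1 (chr9:44043384-44048579, plus strand) was at 2.3 and 1.56 FPKM on CD and 5.56 and 6.81 on HFD. Both HFD values were the highest of the 8 libraries, and the means were 1.93 ± 0.527 and 6.18 ± 0.884 FPKM (SD, n = 2 each). The log2 fold change was 1.30 (SE 0.304, limma adjusted p = 0.163). Il7r (chr15:9506161-9529876, minus strand) was at 0.609 and 0.0763 FPKM on CD and 0.872 and 1.59 on HFD. The CD libraries differed from each other more than the HFD libraries did as a ratio, and the log2 fold change was 0.74 (SE 0.241, adjusted p = 0.238). Ikzf1 was at 0.491 and 0.269 against 0.95 and 1.06 FPKM, with no overlap (0.54, adjusted p = 0.194). With the satellite type of the library as a covariate, Thy1 passed the threshold (adjusted p = 0.0068), as did 744 genes in all, in a fit with 1 residual degree of freedom. Without CD replicate 6 the log2 fold change was 1.49 for Thy1 and 1.03 for Il7r, in a fit with 1 CD library that keeps to library names of 1 start. CD replicate 6 held the higher CD value of both genes, so leaving it out could only raise both changes. Over the 4 fits that each left out 1 library, the change ran from 1.12 to 1.49 for Thy1 and from 0.45 to 1.03 for Il7r. The 0.45 of Il7r was that without CD replicate 8. CD replicate 6 also held more of other leukocyte genes, with a pan-leukocyte sum of 45.9 FPKM against 14.6 in CD replicate 8.

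T cell members were mostly higher on HFD, at low levels. Cd247 was at 0.187 and 0.169 FPKM on CD and 0.534 and 0.37 on HFD, Cd4 at 0.0961 and 0.143 against 0.327 and 0.251, and Lat at 0.154 and 0.157 against 0.362 and 0.309 FPKM. None of these 3 overlapped. Their log2 fold changes were 0.30, 0.20 and 0.21, with limma adjusted p of 0.245, 0.316 and 0.317. All 4 receptor chains were higher in both HFD libraries, with ratios of means of 2.07 (Cd3d), 2.17 (Cd3e), 1.67 (Cd3g) and 2.54 (Cd247). Cd8b1, Cd5 and Lck were also higher in both, and Cd8a, Cd2 and Zap70 overlapped. In a list of 20 other T cell genes, 7 were tested, of which 4 were higher in both HFD libraries and 1 lower. At an unadjusted p under 0.05 limma gave 1 of them higher and 1 lower. The sum of the 20 went the other way from that of the T members, at 16.1 and 11.6 FPKM on CD against 5.77 and 7.13 on HFD (ratio 0.465).

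The B cell members split. Cd22 was at 0.119 and 0.12 FPKM on CD and 0.378 and 0.455 on HFD, a log2 fold change of 0.34 (SE 0.086, limma adjusted p = 0.17). Cd79a and Ms4a1 were lower in both HFD libraries, at 0.129 and 0.16 against 0.168 and 0.163 FPKM for Cd79a and 0.0793 and 0.0878 against 0.168 and 0.127 FPKM for Ms4a1. Cd79b, Blk and Pax5 overlapped. Neither signalling chain of the receptor was therefore higher, and Cd22, as background, is also found on some myeloid cells. In the list of 17 other B cell genes, Cd74 among them, 11 were tested, of which 5 were higher in both HFD libraries and 3 lower. The list summed to 24.8 and 34.4 FPKM on CD and 67.7 and 54.6 on HFD. Of 12 plasma cell genes, 9 were tested, of which 6 were higher in both and 0 lower. The sum of the 12 overlapped, at 28.6 and 14.1 FPKM on CD and 28.4 and 43.3 on HFD.

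Among the NK and cytotoxic members 5 were higher in both HFD libraries. Il2rb (chr15:78480553-78495066, minus strand) was at 0.0863 and 0.104 FPKM on CD and 0.289 and 0.316 on HFD, a log2 fold change of 0.25 (SE 0.0758, limma adjusted p = 0.218). Klrd1 was at 0.118 and 0.0938 against 0.131 and 0.553 FPKM, so that 1 HFD library lay close to CD. Nkg7, Klrk1 and Tbx21 were the other members without overlap, Gzma and Prf1 overlapped, and so did Cd27 and Gzmb, the latter at 0.0868 and 0.042 against 0.0471 and 0.0261 FPKM. Ltb was at 0.147 and 0.0949 FPKM on CD and 0.37 and 0.451 on HFD (0.33, adjusted p = 0.183), and Ccr7 and Gata3 were higher in both HFD libraries at 0.138 FPKM or less.

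Leukocyte genes that are not specific to lymphocytes were also higher on HFD. Of 13 pan-leukocyte genes and 14 macrophage and monocyte genes, 13 and 12 were higher in both HFD libraries. Their summed FPKM was 3.57 and 3.25 times that on CD, beside 1.94 for the T members without Thy1, 2.16 for the NK and cytotoxic members, 1.2 for the B members and 1.91 for 11 dendritic cell genes. Without CD replicate 6 these ratios were 7.41 and 5.8, beside 2.07 for the T members, 2.51 for the NK and cytotoxic members and 1.48 for the B members. None of these 27 genes passed the threshold either, and 11 of each list had an unadjusted p under 0.05. The pan-leukocyte sum was 96.9 and 119 FPKM on HFD against 45.9 and 14.6 on CD, and the macrophage and monocyte sum 343 and 380 against 160 and 62.3 FPKM. Both sums were thus higher in CD replicate 6 than in replicate 8. Without replicate 8 the ratios of 3.57 and 3.25 would therefore be smaller, as would those of the T, NK and B members. The part of other leukocytes in the members' values was not tested. Of the 11 muscle genes, 10 were lower in both HFD libraries. All 6 lymph node stroma and high endothelial genes tested were higher in both HFD libraries, beside 39.9% of all genes tested. Rescaled to the coding sum, 3 of these 6 were, beside 33.4%. The part of lymph node content in the members' values was not tested.

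The median of genes at 1 FPKM or more was shifted by 0.29 (log2) on HFD as deposited. Rescaled to the coding sum, 21 members were higher in both HFD libraries and 3 lower, beside 33.4% and 10.9% of all genes tested. Quantile normalization gave 19 of 23 members with a positive log2 fold change and 4 with a negative one, beside 49.4% and 50.6% of all genes tested. Centring each library on its median gave 3 positive and 20 negative, beside 28.7% and 71.3% of genes, since it subtracts 1 constant from genes near 0 and abundant genes alike. Within the satellite-rich libraries (HFD replicate 2 against CD replicate 8) 28 of 33 members were higher, and within the others (HFD replicate 6 against CD replicate 6) 29 of 33, beside 76.3% and 75.8% of all genes tested. Against CD replicate 8 alone, whose library name starts like those of HFD, 25 of 33 members were higher in both HFD libraries and 2 lower, beside 68.8% and 13.3% of all genes tested.

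**Figure D3:**
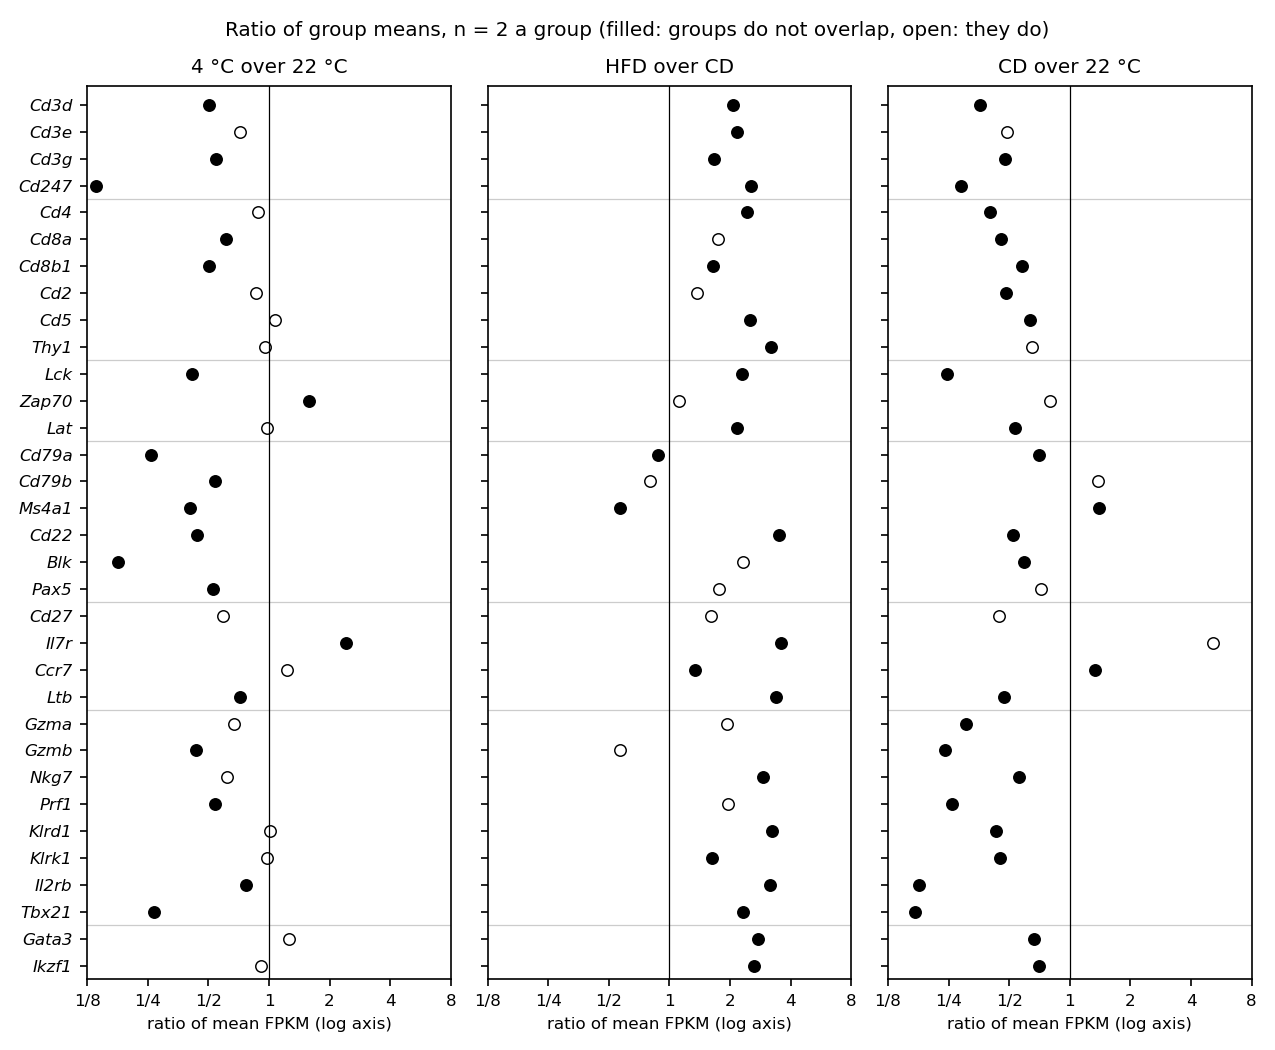
Ratio of the mean FPKM of 2 groups (n = 2 each) for each member on a log axis, for 4 °C over 22 °C, HFD over CD and CD over 22 °C. Filled points mark members whose groups do not overlap, of which 17 of 19 lie left of 1 in the cold, 21 of 23 right of 1 on HFD and 24 of 26 left of 1 for CD over 22 °C.

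The cold and HFD comparisons share no library, so their difference was tested in a model of all 8 libraries. The cold effect minus the HFD effect was negative for 28 of 29 members tested, with a median of -0.25, beside 62.5% of the 18894 genes and a median of -0.09. Cd8a, Cd8b1, Prf1 and Tbx21 reached 0.1 FPKM at 22 °C or on HFD alone, which favours a negative sign, and of the other 25 members 24 were negative, beside 62.4% of genes. None of the members passed both criteria, which 196 genes (1.04%) did. At an unadjusted p under 0.05, limma gave 10 members, all negative and Tbx21 among them. Of all genes, 12.3% were negative at that level and 18.4% passed it in either direction. At the adjusted p alone, 1 member, Cd247, was under 0.05, as were 243 genes (1.29%). For Cd247 the difference was -0.87 on log2(FPKM + 1) (SE 0.131, limma adjusted p = 0.0381) and -2.92 with a pseudocount of 0.1 (adjusted p = 0.0361). Leaving out any 1 of 7 libraries raised the adjusted p to between 0.0698 and 0.1, and only without CD replicate 6 did it stay under 0.05 (0.0372). Cd22 followed at -0.50 (adjusted p = 0.0609), Ltb at -0.42 (0.0824) and Tbx21 at -0.31 (0.0869).

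**Figure D4:**
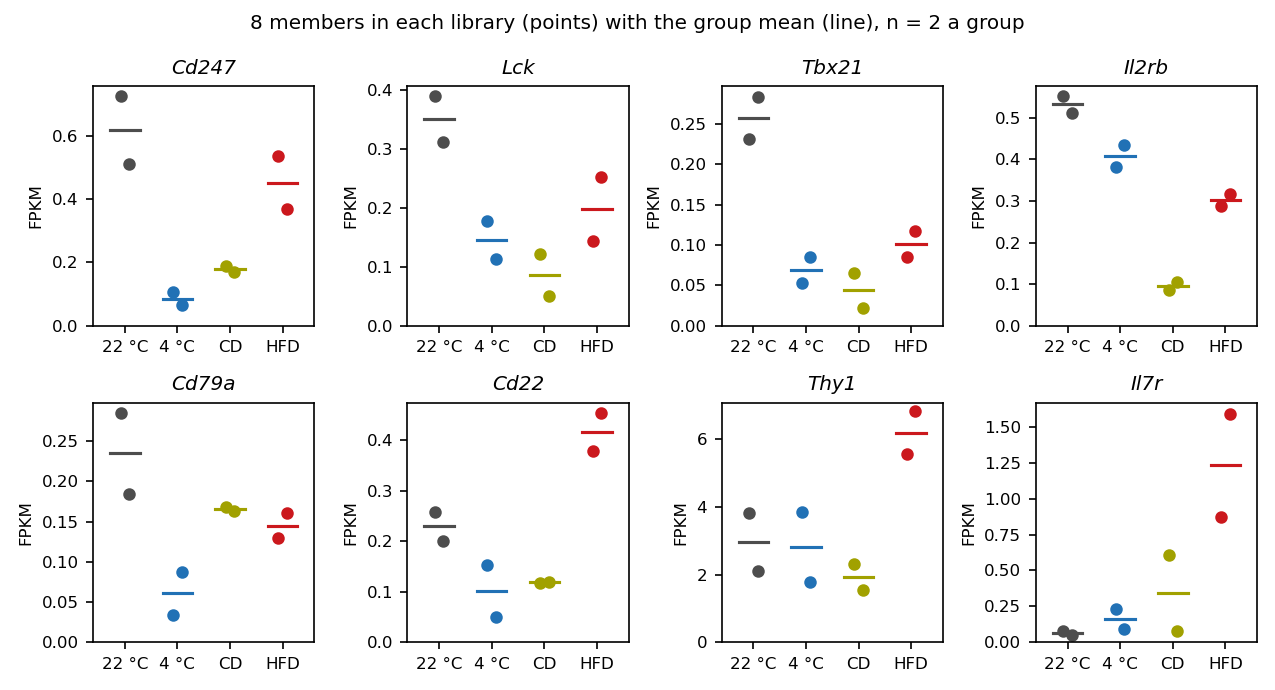
FPKM of 8 members in each library (points) with the group mean (line), n = 2 a group. Cd247 has means of 0.616 FPKM at 22 °C, 0.0854 at 4 °C, 0.178 on CD and 0.452 on HFD, while Thy1 and Il7r are highest on HFD.

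The control groups were also set side by side, to show how far the lymphocyte background differed. The 22 °C and CD mice differ in age and experiment and, since the CD food is not settled, perhaps in food, which cannot be told apart, and each is the control of 1 comparison above. Of the 33 members, 24 were lower in each CD library than in either 22 °C library and 2 higher, beside 31% and 12.2% of the 17329 genes tested and 35.6% and 11.8% of tested genes with a mean under 1 FPKM. None of the 25 members tested and 0 genes (0%) passed the threshold. At an unadjusted p under 0.05, limma gave 10 members lower and 0 higher, beside 8.84% and 3.15% of genes, or 2077 genes (12%) in either direction. The log2 fold change was negative for 23 of the 25 and positive for 2, beside 60.6% and 39.4% of genes, and its median was -0.20, beside -0.06. Cd8a, Gzmb, Nkg7, Prf1 and Tbx21 were tested through their 22 °C values alone, so that they could hardly have come out higher on CD. Gzmb, Prf1 and Tbx21 are among the 10 members with an unadjusted limma p under 0.05. The rest of those 10 were Cd247, Cd4, Cd2, Lck, Gzma, Klrk1 and Il2rb. Of the 20 members that reached 0.1 FPKM in both groups, 18 were negative, beside 60.1% of such genes.

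All 8 NK and cytotoxic members were lower in both CD libraries, and whether they differed more than the T members was not tested. A list of 15 other NK and cytotoxic genes summed to 0.613 and 0.36 FPKM on CD and 1.78 and 2.82 at 22 °C. Il2rb was at 0.0863 and 0.104 FPKM on CD and 0.553 and 0.512 at 22 °C. The groups lay far apart compared with the spread within them, with means of 0.0953 ± 0.0128 and 0.532 ± 0.0292 FPKM (SD, n = 2 each), a ratio of 5.59 and a log2 fold change of -0.48 (SE 0.082, limma adjusted p = 0.226, unadjusted p = 0.000934). Tbx21 was at 0.065 and 0.0227 against 0.232 and 0.284 FPKM (ratio 5.88), and Gzma at 0.211 and 0.133 against 0.449 and 0.676 FPKM (ratio 3.28). With a pseudocount of 0.1 and the satellite type as a covariate, 6 members passed the threshold among 1151 genes in all, against 0 genes without these settings. The 6 were Cd247, Lck, Gzma, Gzmb, Il2rb and Tbx21, with Il2rb at -1.70 (adjusted p = 0.00057), and of these Gzmb and Tbx21 were admitted to the test by the 22 °C libraries in which they are high.

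T members were mostly lower in CD than at 22 °C too, and the B members were split. Lck was at 0.122 and 0.0509 FPKM on CD against 0.389 and 0.312 at 22 °C, a ratio of 4.06, and Cd247 had a ratio of 3.46. Cd3d, Cd3g, Cd4, Cd8a, Cd8b1, Cd2, Cd5, Lat and Ltb were lower in both CD libraries as well, as were Gata3 and Ikzf1. Of the B members, Cd79a, Cd22 and Blk were lower in both CD libraries, Ms4a1 was higher in both (ratio 1.39), and Cd79b overlapped, at 0.601 and 0.256 against 0.327 and 0.295 FPKM. Ccr7 was the other member higher in both, and Cd3e, Thy1, Zap70, Pax5, Cd27 and Il7r overlapped. In the list of 17 other B cell genes, 12 were tested, of which 8 were lower in both CD libraries and 0 higher. Within the satellite-rich libraries (CD replicate 8 against 22 °C replicate 4) 29 of 33 members were lower, and within the others 27 of 33, beside 69.4% and 49.6% of all genes tested. CD replicate 6 alone, whose library name starts like those at 22 °C, was below both 22 °C libraries for 27 of 33 members and above both for 4, beside 42.7% and 42.9% of all genes tested. The erythroid sum went the other way, at 802 and 431 FPKM on CD against 163 and 157 at 22 °C. The pan-leukocyte sum, at 45.9 and 14.6 FPKM on CD against 28.7 and 27.5, overlapped. The sum of 20 other T cell genes overlapped too, at 16.1 and 11.6 FPKM against 13.9 and 14.4. Of the 8 other T cell genes tested, 6 were lower in both CD libraries and 0 higher. Ratios of sums, CD over 22 °C, were 0.983 for other T cell, 0.36 for other B cell and 0.212 for other NK genes. They were 0.711 for plasma cell, 0.696 for group 2 innate lymphoid and 0.629 for gamma delta T cell genes. Sums of 11 dendritic cell genes (47.1 and 42.7 FPKM on CD against 108 and 103 at 22 °C) and of 9 mast cell and eosinophil genes (3.01 and 3.68 against 10.8 and 5.99 FPKM) were lower in both CD libraries, with ratios of CD over 22 °C of 0.426 and 0.398, beside 0.424 for the T members without Thy1 and 0.307 for the NK members. The part of these cells in the members' values was not tested.

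Single libraries differed within groups by 2-fold or more for 4 members at 22 °C, 10 at 4 °C, 11 on CD and 8 on HFD. The share of all genes that differed as much is not given here, so these counts describe the members only. Il7r differed most on CD (0.609 and 0.0763 FPKM) and Nkg7, a granule protein gene, at 4 °C (0.021 and 0.129 FPKM). On HFD the largest ratio was that of Prf1 (0.0261 and 0.139 FPKM), with Klrd1, a subunit of NK receptors, at 0.131 and 0.553 FPKM. At 22 °C it was that of Cd3e (0.162 and 0.0495 FPKM). The low library stood on 1.38 approximate fragments for Nkg7 at 4 °C and on 6.14 for Prf1 on HFD, whereas Il7r stood on 21.8 fragments at the lowest and 493 at the highest.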

How the data were processed

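BAT RNA of 8 mice was depleted of ribosomal RNA and made into directional libraries. Per the labels and the study's methods, the authors mapped reads of 100 bases to GRCm38 with TopHat2 2.0.10 in QuickNGS 1.2.7 and computed FPKM with Cufflinks on Ensembl release 87. The deposited table holds 1 FPKM value per gene and library, with no counts, and the fragment depth of a library is given only as the value of 1 fragment. Groups came from the labels. Here limma 3.58.1 (R 4.3.3, empirical Bayes with a mean trend) was run on log2(FPKM + 1) of autosomal genes with at least 0.1 FPKM in 2 libraries, with Benjamini-Hochberg adjustment over all genes tested. A call needed an adjusted p under 0.05 and a log2 fold change of 1 or more in size, and fold changes on this scale understate those of low genes. X-linked genes were left out because the table lists all of them at 0 in 3 libraries. All 33 members may be named by the rule for named genes, and from each marker list its 3 most abundant genes, those past the threshold and, for tissue content, genes at 1 FPKM or more or defining genes near 0. The members and lists were chosen with earlier results of these data known. Nothing states that the replicates of a group came from separate litters or days, so p-values cover the spread between these libraries only. Alternatives were other pseudocounts, filters, scalings, covariates, fits and leaving out each library. The fit was tested on simulated data. Sequences came from RefSeq on GRCm38.p6, and motifs were searched on both strands.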

Additional observations from a re-analysis of the deposited data

Results flagged for a closer look

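Cd247 was singled out because its cold effect and its HFD effect differed in a test of the difference itself. The cold effect minus the HFD effect was -0.87 on log2(FPKM + 1) (SE 0.131, limma adjusted p = 0.0381, 2 libraries in each of 4 groups). Both 4 °C libraries (0.106 and 0.0653 FPKM) were below both 22 °C libraries (0.723 and 0.51 FPKM), and both HFD libraries (0.534 and 0.37 FPKM) were above both CD libraries (0.187 and 0.169 FPKM). The adjusted p ran from 0.0272 to 0.268 over 19 alternatives, and the difference was negative in all 19.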

How the results depend on the processing

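Genes past the threshold in the cold numbered 252. They numbered 475 and 142 with pseudocounts of 0.1 and 0.01, 0 without a filter, 529 with a filter of 1 FPKM, 506 with quantile normalization, 754 with median centring, 579 rescaled to the coding sum, 859 with the library type as a covariate, 439 with all 8 libraries in 1 fit, 0 without a trend, and 1 to 766 without 1 library. Settings added after the data were seen, a pseudocount of 0.1 with the covariate or with rescaling, gave 887 and 1066. On HFD the 12 genes became 0 without a filter, with quantile normalization, rescaled, without a trend and with both a pseudocount of 0.1 and rescaling, 24 with a filter of 1 FPKM, 45 with median centring, 744 with the covariate, 2016 with the covariate and a pseudocount of 0.1, 75 in 1 fit, and 99 to 727 without 1 library. For CD against 22 °C the 0 genes became 9 and 7 with the smaller pseudocounts, 2 with the filter of 1 FPKM, 1 with quantile normalization, 3 with median centring, 1 rescaled (also at a pseudocount of 0.1), 532 with the covariate, 1151 with it and a pseudocount of 0.1, 17 in 1 fit, and 0 to 195 without 1 library. For the difference of effects the 196 genes became 107 at a pseudocount of 0.01, 8 without a filter, 414, 465 and 905 with the quantile, median and coding-sum scales, 599 with the covariate, 55 without a trend, 704 and 1040 in the added settings, and 6 to 539 without 1 library.

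No member passed in the cold except 1, Cd247, with a pseudocount of 0.1, alone or in either added setting, and 0 to 0 without 1 library. On HFD 1 member, Thy1, passed with the covariate, 6 with it and a pseudocount of 0.1, and 0 to 2 without 1 library, the 2 being Thy1 and Il7r without CD replicate 6. For CD against 22 °C 6 passed with the covariate and a pseudocount of 0.1 and 0 to 0 without 1 library. For the difference of effects 1 member, Cd247, passed at pseudocounts of 0.1 and 0.01, 1 with the covariate and 0.1, 6 with rescaling and 0.1, 1 at the adjusted p alone, and 0 to 0 without 1 library. The covariate leaves 1 residual degree of freedom in a fit of 4 libraries, and leaving out a library assumes that the lone sample varies like the other group.

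Rescaling moved the T sum on HFD over CD from 1.94 to 1.72 and the NK sum of 4 °C over 22 °C from 0.704 to 0.534. It also put the T sum of CD replicate 8 (1.71 FPKM) above that of 4 °C replicate 11 (1.57 FPKM). Median centring turned the HFD log2 fold change of Cd247 to -0.056, Cd4 to -0.15, Lat to -0.15, Cd22 to -0.016, Ltb to -0.024 and Il2rb to -0.11. For members with an unadjusted p under 0.05 in a comparison, the other 544 alternative values kept their sign, while of all 23 members tested on HFD 20 were negative under median centring. Keeping to library names of 1 start was also added after the data were seen. No paired analysis was made because the labels give no pairing of mice between groups. Depth is 1 limit, since 16 of 33 members stood on fewer than 10 approximate fragments in some library.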
